A study of Homo sapiens with 15 samples.

Results

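The response of HEK293T and HuCCT1 cells to the same labelled knockout was compared gene by gene over the 35595 genes whose identifiers stand in the count tables of both lines, out of 62703 genes in the series. Members were chosen by the shared identifier alone, and 17617 of them had enough counts to be tested. The comparison used 12 of the 15 libraries: 3 libraries each of HEK293T labelled SNRPD2KO, HEK293T labelled Ctrl, HuCCT1 labelled SNRPD2KO and HuCCT1 labelled Ctrl. HEK293T is a line from embryonic kidney that carries a viral large T antigen and was grown in DMEM. HuCCT1 is a line from a bile duct cancer, grown in RPMI-1640. SNRPD2KO names a knockout of SNRPD2, and Ctrl its control. The labels used here give neither the guides, the number of clones, nor whether libraries of a group came from separate cultures, so p-values measure the spread between these libraries, which may be technical. Each line has its own table, medium and libraries, so a difference between the lines and a difference between the 2 sets of libraries cannot be told apart.

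Throughout, the response of a gene is the log2 fold change of the libraries labelled SNRPD2KO over those labelled Ctrl in one line. The difference between the lines is the HuCCT1 response minus the HEK293T response, tested as the interaction of line and label, and a gene was called at an adjusted p below 0.05. Levels are counts scaled to the library's total over shared genes times its TMM factor, which corrects for composition (CPM). They follow transcript length and are compared within a gene only. Each 95% interval comes from the fit across all genes and includes the spread between libraries.

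SNRPD2 encodes SMD2, a member of the ring of Sm proteins that binds the spliceosomal small nuclear RNAs and is needed for the assembly of the particles that cut introns out of messenger RNA precursors. SR proteins guide those particles to splice sites. The integrated stress response is a second system described below: kinases that sense amino acid shortage, misfolded protein or other stress slow translation, and the transcription factor ATF4 then switches on genes for amino acid synthesis and transport and for charging of tRNA. Sterol synthesis is controlled by SREBP factors, which are held in the endoplasmic reticulum by INSIG proteins while sterol is plentiful.

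In each line, SNRPD2 RNA was more abundant under the SNRPD2KO label than under Ctrl, which goes against the label. SNRPD2 (ENSG00000125743.11, chromosome 19, 45687460 to 45692569, build hg38) stood at 302, 279.8 and 243 CPM in the 3 HEK293T libraries labelled SNRPD2KO and at 188, 162 and 175 CPM in Ctrl. In the HuCCT1 libraries labelled SNRPD2KO it stood at 267, 292 and 326 CPM, and in Ctrl at 166, 152 and 162 CPM. The groups did not overlap in either line. The response was 0.65 in HEK293T and 0.88 in HuCCT1, and the difference of 0.23 (SE 0.13, 95% interval -0.04 to 0.50) did not pass (adjusted p = 0.16). With the trend in transcript GC content removed from each library the difference was 0.48 and passed (adjusted p = 0.0024), as it did with a trend in transcript length removed (0.44, adjusted p = 0.0034). The sample descriptions assign the C columns of counts to SNRPD2KO and the S columns to Ctrl in both lines. Whether these labels were exchanged was not tested, and exchanged labels would reverse every direction below. Every direction below is therefore one between labelled groups, and no statement is made on the level of SMD2 protein. PUS7, the pseudouridine synthase that the series also targets in HEK293T, gave a difference of -0.21 (SE 0.12, 95% interval -0.46 to 0.05), which did not pass (adjusted p = 0.19), and gave -0.36 with the GC trend removed (adjusted p = 0.020).

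**Figure D1:**
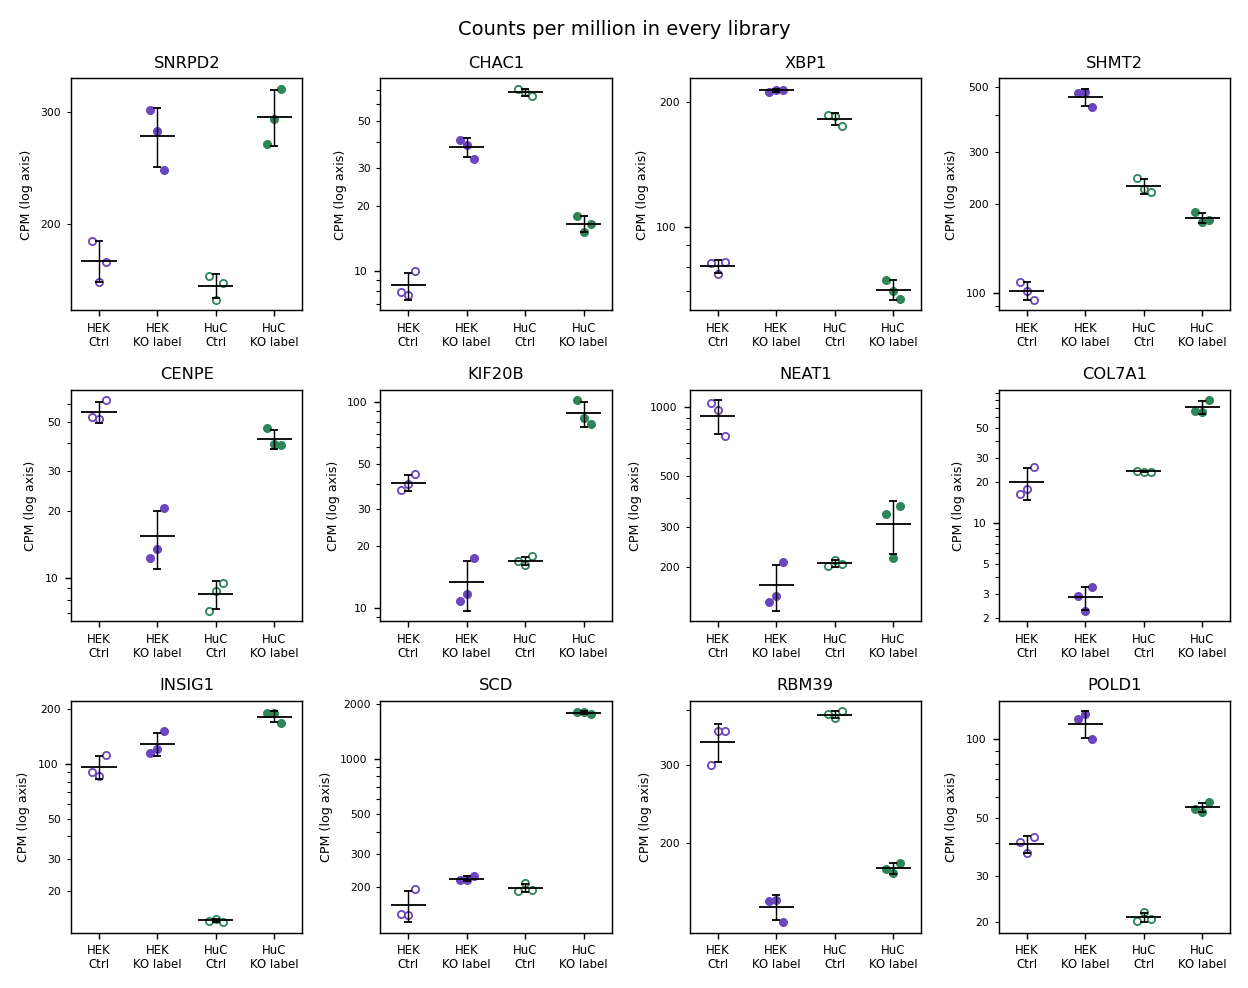
CPM on a log axis in every library for 12 genes, with open points for Ctrl, filled points for libraries labelled SNRPD2KO (KO label), a bar at the mean and an error bar of 1 SD (n = 3); HEK is HEK293T and HuC is HuCCT1. SNRPD2 is higher under the SNRPD2KO label in both lines, CHAC1, XBP1 and SHMT2 go up in HEK293T and down in HuCCT1, and CENPE, KIF20B, NEAT1 and COL7A1 do the reverse.

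Total counts ran from 7944276 to 11270267 in the HEK293T libraries and from 13776166 to 16795618 in the HuCCT1 libraries, so the HuCCT1 responses rest on more reads. Small noncoding RNAs took 28.97% to 35.8% of the HEK293T counts and 2.19% to 4.11% of the HuCCT1 counts. Shared genes with a count numbered 22657 to 24082 in HEK293T libraries labelled SNRPD2KO, fewer than the 25877 to 26202 in HEK293T Ctrl, although Ctrl had the smaller totals. The 15 markers of bile duct and other epithelium summed to 207.6 to 361.4 CPM in HEK293T and to 12770 to 13770 CPM in HuCCT1. Among them KRT7 and KRT19, keratins of duct epithelium, had 2 counts and 1 count in all 6 HEK293T libraries together, and SPP1 was at or near 0 in HuCCT1 too. The 10 HEK293T markers found in the tables, of 12 listed, summed to 255.5 to 317.5 CPM in HEK293T and to 210.8 to 234.6 CPM in HuCCT1. GATA2, INA, NEFL and NEFM were higher in HEK293T, CDH2 and GATA3 were higher in HuCCT1, and LHX1, MAGEA4 and PAX2 were near 0 in both.

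Markers of other cell types are given for the SNRPD2KO label first and Ctrl second. The summed level of 9 immune cell markers was 0.590 to 1.15 CPM and 4.03 to 4.73 CPM in HEK293T, and 3.65 to 4.16 CPM and 7.30 to 9.0 CPM in HuCCT1. The 6 endothelial markers summed to 0.628 to 1.72 CPM and 2.53 to 3.06 CPM in HEK293T, and to 1.12 to 1.88 CPM and 1.20 to 1.98 CPM in HuCCT1. The 9 fibroblast markers summed to 9.7 to 13.9 CPM and 7.43 to 8.19 CPM in HEK293T, and to 21.3 to 22.7 CPM and 11.6 to 13.7 CPM in HuCCT1. The immune groups did not overlap in either line, and neither did the endothelial groups of HEK293T or the fibroblast groups. PTPRC and CD3E of the immune list, COL1A2 and COL3A1 of the fibroblast list and CDH5 and KDR of the endothelial list had 0 counts in at least 1 group. The part of these cell types in the results was not tested. Some genes that every cell uses are listed at or near 0 in 1 or both tables. COX5B, a subunit of cytochrome oxidase, had 0 counts in HEK293T and a mean of 110.2 CPM in HuCCT1, while RPS18 had 4 counts over the 6 HEK293T libraries and 26 over the 6 HuCCT1 libraries, PRPF8 had 2 and 1, and VARS1 had 2 and 21. Such genes give no response in that line, and no more is read from them.

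Responses differed between the lines in 7171 of the 17617 genes tested (40.7%). Of these, 3486 (19.8%) had the higher response in HuCCT1 and 3685 (20.9%) the lower. In 3284 of the 7171 the difference was over 2-fold. Within the lines, 8613 genes were called in HEK293T (48.9%; 24.3% higher and 24.6% lower under the SNRPD2KO label) and 8409 in HuCCT1 (47.7%; 23.1% higher and 24.6% lower). These shares are the background over all genes tested for the counts of list members below. The share that differs is larger among genes well expressed in both lines, as given below. Groups of libraries did not overlap in 55.7% of tested genes in HEK293T, 56.5% in HuCCT1 and 33.8% in both lines at once, which is the background for the statements on overlap below. Genes named as opposite, or as shared of like or unequal size, were picked for no overlap in either line. Those named for the largest differences were picked for no overlap in at least 1 line. For these genes, CHAC1, XBP1, CENPE and RBM39 among them, the lack of overlap follows from the selection.

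Of the genes called in both lines, 3192 moved in the same direction (18.1% of genes tested) and 1614 in opposite directions (9.16%). The shared genes comprised 1651 higher in both lines (9.37%) and 1541 lower in both (8.75%). Genes higher in HEK293T and lower in HuCCT1 numbered 808 (4.59%), and 806 (4.58%) went the other way. Of the genes higher in HEK293T, 38.6% were also higher in HuCCT1 and 18.9% were lower there. Of those higher in HuCCT1, 40.6% were also higher in HEK293T. A response was taken as alike in size where the 95% interval of the difference lay within 1.5-fold either way, which held for 1082 of the 3192 shared genes. The size differed in 1122 (581 larger in HEK293T, 541 larger in HuCCT1), and in 988 the interval was too wide to say. Across all tested genes the responses in the lines had a Pearson r of 0.18 and a Spearman rho of 0.19, which describe genes and not replicates. Against a minimum change of 1.5-fold, 131 opposite and 529 shared genes were left.

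Among the 9023 genes with at least 5 CPM in the higher group of each line, 5322 (59.0%) differed, 2602 were shared and 1362 were opposite. The response in HuCCT1 was higher in 2390 and lower in 2932 of them. Most members of most lists below reach this level, so these counts are the nearer background for such lists. Conversely, 307 genes called as different had under 1 CPM in HEK293T and 513 had under 1 CPM in HuCCT1.

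**Figure D2:**
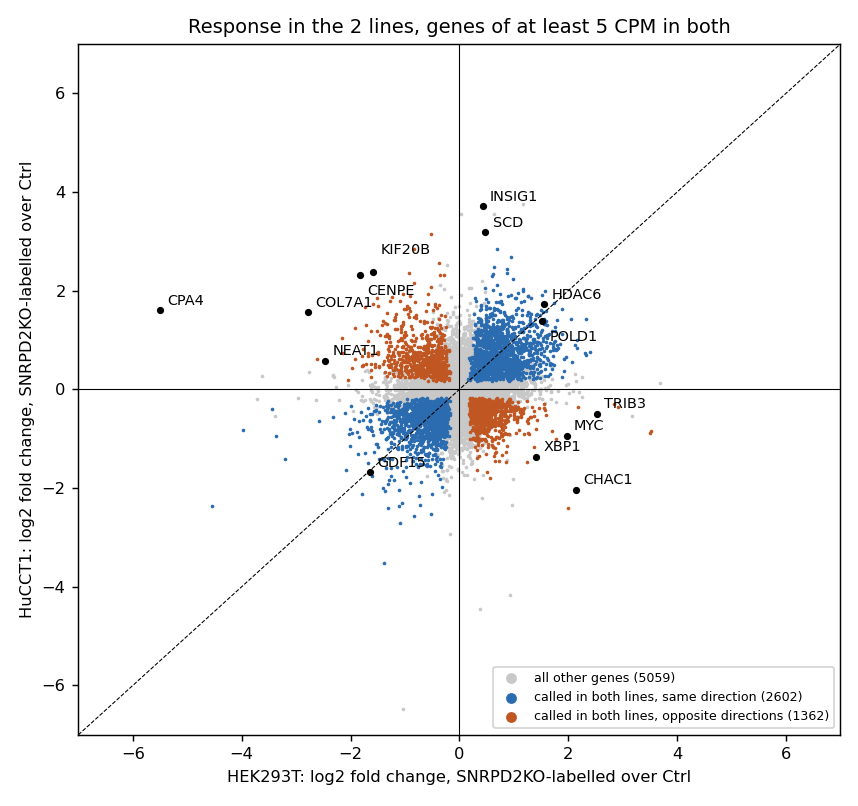
Log2 fold change of the libraries labelled SNRPD2KO over Ctrl in HEK293T (x axis) and HuCCT1 (y axis) for the 9023 genes of at least 5 CPM in both lines, 1 point a gene; the dashed line marks equal responses. The 2602 shared genes lie at the lower left and upper right, and the 1362 opposite genes at the other corners, with CHAC1 at the lower right and CENPE and KIF20B at the upper left.

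The direction of the difference followed transcript length and GC content. Both are those of the longest annotated transcript of each gene, which need not be the one expressed here. The 8626 protein-coding genes of at least 5 CPM in both lines were cut into 5 bins of like size. The median difference was -0.48 in the bin with the shortest transcripts (312 to 2286 bases) and 0.41 in the bin with the longest. The 2 lines ran in opposite directions along length: the median response fell from 0.28 to -0.23 in HEK293T and went from -0.17 to 0.18 in HuCCT1. With GC content, the median response ran from -0.47 to 0.40 in HEK293T, while in HuCCT1 it was 0.08 in the bin of lowest GC and 0.06 in that of the highest. In the bin of lowest GC 55.45% of genes were called with the higher response in HuCCT1, against 14.3% in the highest. Spearman rho of the difference was 0.40 with length and -0.42 with GC content, and length and GC were themselves related across genes (-0.29). Opposite genes differed accordingly: the median transcript was 2749 bases in the 669 protein-coding genes higher in HEK293T and lower in HuCCT1, and 6127 bases in the 647 that went the other way, beside 3924.5 bases in all 8626. With both trends removed from each library, 6639 genes differed and 1275 were opposite. The part of RNA quality or of library preparation in these trends was not tested.

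**Figure D3:**
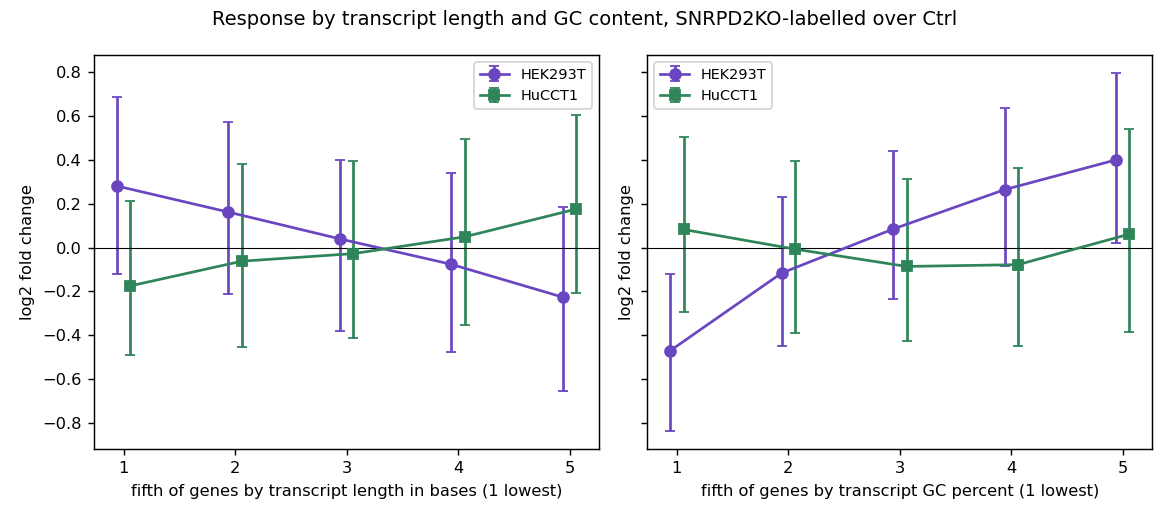
Median log2 fold change of the libraries labelled SNRPD2KO over Ctrl, with bars from the 25th to the 75th percentile of genes, in 5 bins of 8626 protein-coding genes by transcript length (left) and GC content (right). The HEK293T medians fall with length from 0.28 to -0.23 while the HuCCT1 medians climb from -0.17 to 0.18, and the HEK293T medians climb with GC content.

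Of 30 tested members of the integrated stress response list, 26 rose in HEK293T, beside 24.3% of all genes, and 19 fell in HuCCT1, beside 24.6%. In 15 members both calls were made in those opposite directions, 3 rose in both lines and 2 fell in both. The response was lower in HuCCT1 for 24 of the 30, beside 20.9% of all genes. The median difference was -1.57, beside -0.01 over all genes tested, and -1.57 again over the 23 members of at least 5 CPM in both lines. Over all alternatives tried, the median lay between -1.68 and -1.33.

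CHAC1 (ENSG00000128965.13, chromosome 15, 40952962 to 40956512), an enzyme that breaks down glutathione and a late target of ATF4, shows the pattern. Its level was 40.9, 38.8 and 33.4 CPM in HEK293T labelled SNRPD2KO against 7.95, 7.70 and 9.94 CPM in Ctrl. In HuCCT1 it was 18.02, 15.1 and 16.5 CPM against 70.3, 68.5 and 65.2 CPM. The groups were apart in both lines, with the labelled knockout on top in HEK293T and at the bottom in HuCCT1. The responses were 2.14 and -2.04, and the difference was -4.18 (SE 0.16, 95% interval -4.51 to -3.85, adjusted p = 6e-12).

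ATF4 itself rose in HEK293T (0.58) and fell in HuCCT1 (-0.42), a difference of -1.01 (adjusted p = 7.3e-07). SHMT2, the mitochondrial serine hydroxymethyltransferase, was at 477, 479.7 and 427 CPM in HEK293T labelled SNRPD2KO and at 109, 102 and 94.8 CPM in Ctrl, while HuCCT1 gave 188, 174 and 177 CPM against 245, 225 and 219.8 CPM. Its difference was -2.54 (SE 0.11). PHGDH, the entry enzyme of serine synthesis, responded by 1.41 and -0.80, and PSPH, the last enzyme of that route, by 1.17 and -0.42. TRIB3, a pseudokinase that feeds back on ATF4, responded by 2.53 and -0.49. The feedback and cell death factor DDIT3 (CHOP) went 0.40 up and 1.02 down. SLC7A5, the light chain of a leucine transporter, gave 0.74 and -0.98. Its heavy chain SLC3A2 fell in both lines, by 0.32 in HEK293T and by 1.97 in HuCCT1.

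GDF15, a secreted stress cytokine, fell by nearly the same amount in both lines (-1.63 and -1.68), with a difference of -0.04 (95% interval -0.55 to 0.47). ATF5 and VLDLR rose in both lines, with differences of -0.34 and -0.27 that did not pass. INHBE, a secreted growth factor subunit, had 1556 counts in HEK293T labelled SNRPD2KO and 71 in Ctrl, but 1 and 14 counts in the HuCCT1 groups, so its HuCCT1 response rests on a handful of reads. PSAT1, an enzyme of serine synthesis, had 1 count over the 6 HuCCT1 libraries.

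Of 19 tested cytosolic aminoacyl-tRNA synthetases, 16 rose in HEK293T, 8 fell in HuCCT1, 3 rose in HuCCT1, and 17 had the lower response in HuCCT1, with a median difference of -0.88. Calls were opposite in 7. WARS1, which charges tryptophan tRNA, responded by 1.19 and -0.91 (difference -2.09, SE 0.09). MARS1, for methionine, was at 445, 425 and 412 CPM in HEK293T labelled SNRPD2KO and at 164, 149.6 and 153 CPM in Ctrl, and at 198, 192 and 199 CPM against 259, 252 and 257 CPM in HuCCT1. QARS1, LARS1 and AARS1 rose in both lines, less in HuCCT1. RARS1, for arginine, passed in neither line (-0.15 and -0.16).

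Promoters of these genes are shown because the lists share a known element, the C/EBP-ATF response element that ATF4 binds with C/EBP partners. Sequences are the 250 bases before the RefSeq gene start, on the strand of the gene, build GRCh38.p14, and capitals mark matches to TGATGNAAN on either strand. The RefSeq start can differ from the gene start used for the counts. The CHAC1 and GARS1 windows lie inside the spans counted for those genes. The motif was searched from 250 bases before to 50 after each start. It was found in 7 of 40 promoter entries of the stress response list (17.5%) and 7 of 21 of the synthetase list (33.3%), beside 1268 of 35116 promoters in all (3.61%). A match describes these letters and is not evidence of binding. CHAC1 lies at chr15:40953221-40953470 (plus strand), CEBPG at chr19:33373863-33374112 (plus), AARS1 at chr16:70289507-70289756 (minus), GARS1 at chr7:30594628-30594877 (plus) and IARS1 at chr9:92293698-92293947 (minus).
CHAC1: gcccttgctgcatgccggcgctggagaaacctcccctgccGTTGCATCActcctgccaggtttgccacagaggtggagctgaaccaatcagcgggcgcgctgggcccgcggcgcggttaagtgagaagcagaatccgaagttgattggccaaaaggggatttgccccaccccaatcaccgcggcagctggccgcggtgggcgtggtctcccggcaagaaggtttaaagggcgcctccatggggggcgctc
CEBPG: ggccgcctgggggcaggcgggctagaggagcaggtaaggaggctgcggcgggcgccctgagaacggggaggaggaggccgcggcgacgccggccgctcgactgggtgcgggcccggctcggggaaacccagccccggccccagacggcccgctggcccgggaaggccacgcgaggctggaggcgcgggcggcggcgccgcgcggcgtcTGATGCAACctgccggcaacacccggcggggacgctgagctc
AARS1: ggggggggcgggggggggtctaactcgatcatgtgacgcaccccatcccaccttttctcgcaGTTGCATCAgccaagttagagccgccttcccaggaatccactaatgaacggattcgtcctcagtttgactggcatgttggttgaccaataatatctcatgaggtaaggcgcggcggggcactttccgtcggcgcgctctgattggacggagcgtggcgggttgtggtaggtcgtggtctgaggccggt
GARS1: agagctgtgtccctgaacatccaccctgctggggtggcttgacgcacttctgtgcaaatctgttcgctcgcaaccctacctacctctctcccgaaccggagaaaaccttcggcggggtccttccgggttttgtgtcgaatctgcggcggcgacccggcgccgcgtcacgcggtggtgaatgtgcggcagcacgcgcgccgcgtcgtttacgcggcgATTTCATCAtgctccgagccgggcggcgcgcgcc
IARS1: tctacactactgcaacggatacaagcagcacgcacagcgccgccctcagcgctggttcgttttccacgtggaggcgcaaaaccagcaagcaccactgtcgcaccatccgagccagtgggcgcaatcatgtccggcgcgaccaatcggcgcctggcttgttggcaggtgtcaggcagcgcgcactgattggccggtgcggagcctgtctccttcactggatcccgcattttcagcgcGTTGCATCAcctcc
The 5 genes carrying these promoters had differences of -4.18 (CHAC1), -1.11 (CEBPG, a C/EBP partner of ATF4), -0.81 (AARS1), -1.61 (GARS1) and -2.03 (IARS1), all called.

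**Figure D4:**
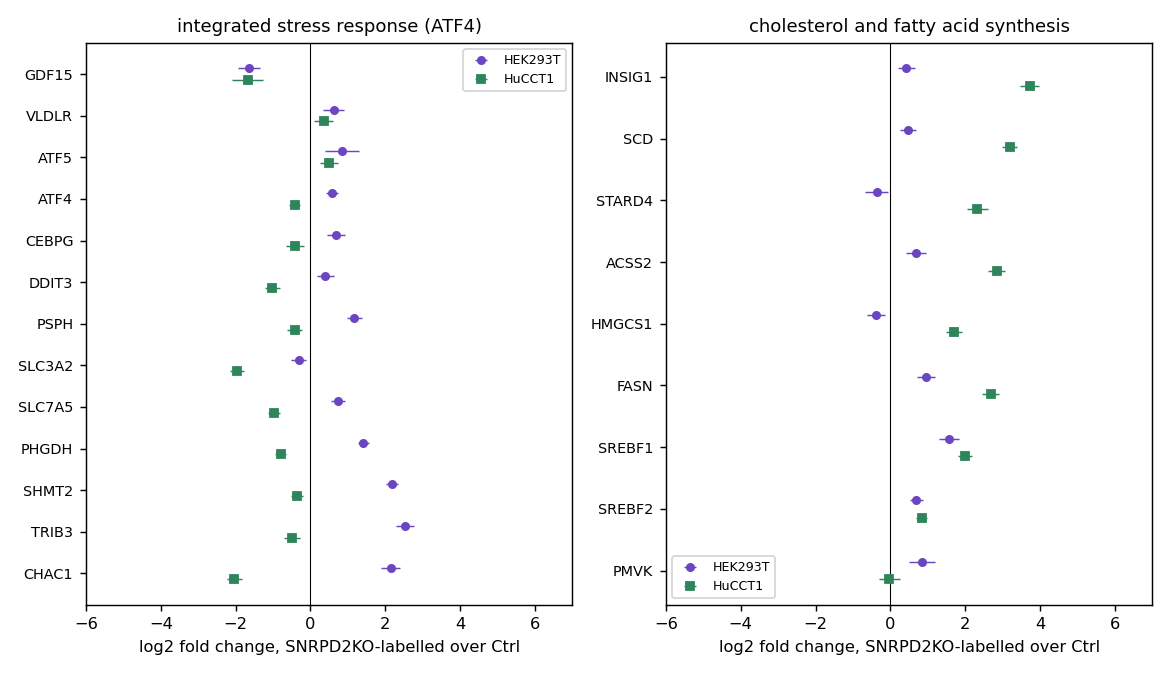
Log2 fold change of the libraries labelled SNRPD2KO over Ctrl with 95% intervals for the members of the integrated stress response list (left) and of the cholesterol and fatty acid lists (right) that are described in the text with counts in every group, ordered by the difference between the lines. HuCCT1 squares lie left of the HEK293T circles for stress response genes such as CHAC1 and TRIB3, and right of them for sterol genes such as INSIG1 and HMGCS1.

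In the list of endoplasmic reticulum chaperones and the unfolded protein response, 15 of 23 members had the lower response in HuCCT1 and 1 the higher, and 7 were opposite. Over all genes tested the shares were 20.9%, 19.8% and 9.16%. XBP1 (ENSG00000100219.17, chromosome 22, 28794555 to 28800597), the transcription factor made active by IRE1 splicing, stood at 211, 214 and 214 CPM in HEK293T labelled SNRPD2KO and at 81.7, 76.9 and 82.0 CPM in Ctrl. HuCCT1 gave 74.4, 70.0 and 66.8 CPM against 185, 185 and 175 CPM. The groups were apart in both lines, in opposite order, and the difference was -2.78 (SE 0.09, adjusted p = 4.6e-12). HSPA5 (BiP), the main chaperone of the compartment, responded by 0.51 and -0.85, and HERPUD1, a factor of its protein disposal route, by 0.77 and -0.70. ERN1, which encodes the IRE1 sensor itself, responded by 0.48 and -1.31. Heat shock chaperones were lower in response in HuCCT1 for 10 of 20 members and higher for 3, beside the same 20.9% and 19.8%. FKBP4, a cochaperone of HSP90, gave 0.75 and -0.73, and HSPA8, the constitutive HSP70, 0.32 and -0.68. HSPH1 and DNAJB1 fell in both lines.

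Of 75 ribosomal protein genes tested, 39 rose in HEK293T and 5 fell, 48 fell in HuCCT1 and 0 rose, 25 were opposite, and 51 had the lower response in HuCCT1 against 2 with the higher. The median responses were 0.27 and -0.28. RPL13 was at 2916, 2861 and 2507 CPM in HEK293T labelled SNRPD2KO and at 1637, 1574 and 1595 CPM in Ctrl, and at 827, 826 and 868 CPM against 1127, 1075 and 1036 CPM in HuCCT1. These genes have short transcripts. In the bin of shortest transcripts above, 53.94% of genes had the lower response in HuCCT1 and 9.33% the higher. That bin had median responses of 0.28 and -0.17 and a median difference of -0.48, so the list is near it. The median difference of the list was -0.54, and -0.30 at its nearest to 0 over the alternatives. Against a minimum change of 1.5-fold, 9 of the 51 lower calls were left. Nuclear-encoded respiratory chain genes were lower in response in HuCCT1 for 26 of 69 and higher for 7. Over all genes tested the shares were 20.9% and 19.8%. Among the 9023 genes of at least 5 CPM in both lines, a level that 64 of the 69 reached, 2932 were lower and 2390 higher.

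Of 25 cholesterol synthesis genes tested, 24 rose in HuCCT1, beside 23.1% of all genes, and 10 in HEK293T, beside 24.3%, and 18 had the higher response in HuCCT1 against 1 with the lower. The median responses were 1.39 and 0.43, and the median difference was 1.00. INSIG1 (ENSG00000186480.13, chromosome 7, 155297776 to 155310235), the sterol-sensitive anchor of SREBP and itself an SREBP target, was at 189, 189 and 167 CPM in HuCCT1 labelled SNRPD2KO against 13.7, 14.1 and 13.6 CPM in Ctrl. In HEK293T it was at 116, 121 and 151 CPM against 90.4, 86.0 and 112 CPM. The labelled knockout was the higher group in both lines, by 3.72 in HuCCT1 and by 0.43 in HEK293T (difference 3.29, SE 0.16, adjusted p = 1.8e-10).

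While rising in HuCCT1, 4 members of the list fell in HEK293T. HMGCS1, the HMG-CoA synthase of the pathway, was one of them (1.70 in HuCCT1 and -0.38 in HEK293T). STARD4, a sterol carrier, was another, with 2.32 in HuCCT1 and -0.36 in HEK293T, the latter just inside the threshold (adjusted p = 0.05 as rounded). SREBF2, the sterol SREBP, rose alike (0.83 and 0.69). PMVK, phosphomevalonate kinase, was the 1 member with the lower response in HuCCT1 (-0.03, against 0.84 in HEK293T).

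The fatty acid genes gave 8 of 11 with the higher response in HuCCT1 and 1 with the lower, beside 19.8% and 20.9% of all genes. SCD, the desaturase that makes oleate, was at 1808, 1805 and 1756 CPM in HuCCT1 labelled SNRPD2KO and at 189.6, 209 and 193 CPM in Ctrl, against 217, 217 and 229 CPM and 142, 139.7 and 194 CPM in HEK293T. FASN, the fatty acid synthase, rose by 2.68 and by 0.95, and ACSS2, which makes acetyl-CoA from acetate, by 2.84 and by 0.68. SREBF1 rose by 2.00 and by 1.57. A sterol regulatory element, TCACNCCAC on either strand, was found in 1 of 23 cholesterol promoters, that of SREBF2, beside 1.13% of all promoters, so these letters say little about the list in windows of this size.

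Of 30 SR proteins and kinases tested, 25 fell in HEK293T and 21 in HuCCT1. 19 fell in both, beside 8.75% of all genes, and 11 were alike in size. RBM39 (ENSG00000131051.24, chromosome 20, 35701347 to 35742312), a splicing factor related to U2AF, was at 148, 148 and 132 CPM in HEK293T labelled SNRPD2KO and at 300.2, 359 and 358 CPM in Ctrl. HuCCT1 gave 174, 171 and 180.1 CPM against 391, 383 and 397 CPM. Both lines had the labelled knockout below Ctrl without overlap, and the difference was 0.09 (95% interval -0.14 to 0.32). SRRM1, a splicing coactivator, gave -1.15 and -1.19, SON, a scaffold of nuclear speckles, -0.80 and -0.76, and SRSF2 -0.55 and -0.52. SRSF1 and SRSF11 fell in both with differences of 0.25 and 0.26 that did not pass.

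Other members of that list did differ. SRSF6 fell by 1.47 in HEK293T and by 0.46 in HuCCT1 (difference 1.01, adjusted p = 2.6e-07), and LUC7L3, a U1-associated protein, by 1.85 and by 0.97. SRSF5 fell in HEK293T (-0.22) and rose in HuCCT1 (0.81), while SRSF8 rose in HEK293T (0.35) and fell in HuCCT1 (-0.89). The median difference of the list was 0.19 and turned to -0.03 with the GC trend removed, so no direction is given for it.

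U1, U2 and tri-snRNP proteins had the lower response in HuCCT1 in 24 of 33 and the higher in 2, with 26 falling in HuCCT1 and 12 in HEK293T. Of all genes tested 20.9% had the lower response, 19.8% the higher, and 24.6% fell in each line. Against a minimum change of 1.5-fold, 6 of the 24 lower calls were left. PRPF6, which bridges the tri-snRNP, was at 283, 298 and 294 CPM in HuCCT1 labelled SNRPD2KO and at 575, 565 and 548 CPM in Ctrl, and did not pass in HEK293T (0.20, adjusted p = 0.051). SNRPA1, a protein of the U2 particle, gave -1.56 in HuCCT1 and -0.19 in HEK293T. The pair with the higher response was SF3B1, the U2 protein that contacts the branch point, and the helicase DDX46, which fell more in HEK293T (-1.15 and -1.71) than in HuCCT1 (-0.52 and -0.54). U2AF1, which reads the end of the intron, fell in both lines (-1.13 and -1.21), with an interval of -1.45 to 1.28 that is too wide to compare the sizes.

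Among 16 Sm and LSm proteins, 7 had the lower response in HuCCT1 and 3 the higher, of which none passed against a minimum change of 1.5-fold. SNRPB, which shares the Sm ring with SMD2, fell by 1.04 in HuCCT1 and by 0.49 in HEK293T. Its difference of -0.55 passed (adjusted p = 0.00035) but was -0.16 with the GC and length trends removed (adjusted p = 0.20). SNRPE and SNRPF fell in both lines with differences of -0.00 and 0.05. SNRPD1 fell by 0.33 and by 0.66, and SNRPD3 by 0.52 in HEK293T, with -0.17 in HuCCT1. Pseudouridine synthases and H/ACA proteins had the lower response in HuCCT1 in 12 of 17 and the higher in 2. Over all genes tested the shares were 20.9% and 19.8%, which also stand beside the Sm and LSm counts. DKC1, the synthase of the H/ACA particles, rose in HEK293T (0.69) and fell in HuCCT1 (-0.20), PUS1 likewise (0.29 and -0.99), and PUS7L the reverse (-0.64 and 0.88). In the nonsense-mediated decay list, 8 of 20 were lower and 5 higher in response in HuCCT1. That is not far from the genes of at least 5 CPM in both lines (2932 lower and 2390 higher of 9023). UPF2, which links the exon junction complex to UPF1, responded by 0.89 in HuCCT1 and by -0.60 in HEK293T.

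In the list of noncoding RNAs of speckles and paraspeckles with hosts of small nucleolar RNAs, 14 of 20 members had the lower response in HuCCT1 and 4 the higher. Over all genes tested the shares were 20.9% and 19.8%. NEAT1 (ENSG00000245532.11, chromosome 11, 65422774 to 65445540), the scaffold of paraspeckles, was at 140.0, 149.7 and 211 CPM in HEK293T labelled SNRPD2KO and at 1039, 974 and 745 CPM in Ctrl. HuCCT1 gave 341, 218 and 369.8 CPM against 201, 214 and 207 CPM, so the labelled knockout was low in HEK293T and above Ctrl in HuCCT1. The difference was 3.04 (SE 0.24, adjusted p = 3.7e-08). MALAT1 fell in HEK293T (-2.30) and did not pass in HuCCT1 (0.24, difference 2.54). The snoRNA hosts SNHG1 (-1.89 in HuCCT1 and -0.91 in HEK293T) and GAS5 (-0.54 and 0.26) had the lower response in HuCCT1.

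**Figure D5:**
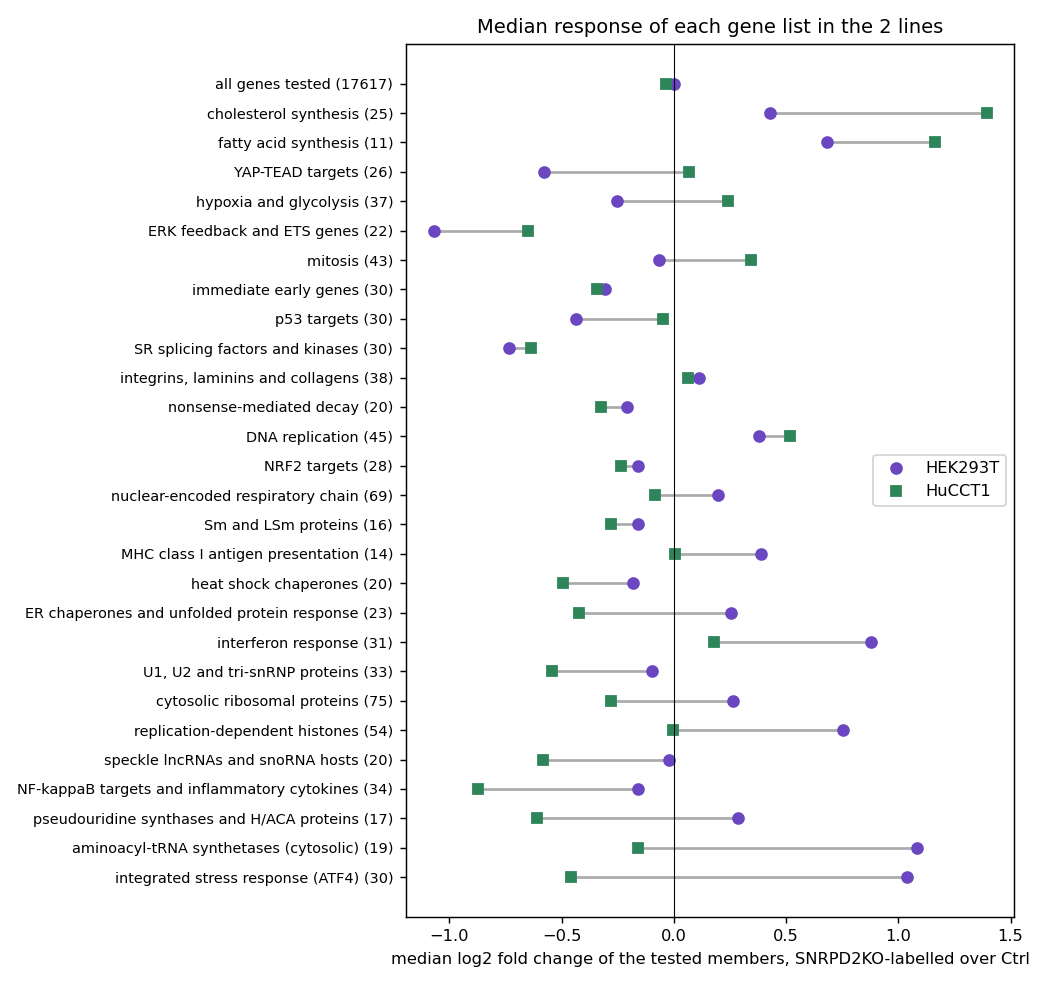
Median log2 fold change of the tested members of each gene list in HEK293T (circles) and HuCCT1 (squares), libraries labelled SNRPD2KO over Ctrl, with the number of tested members in brackets; a grey line joins the 2 lines. The stress response and synthetase lists lie right in HEK293T and left in HuCCT1, the sterol lists lie furthest right in HuCCT1, and SR factors lie left in both.

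Of 45 DNA replication genes tested, 35 rose in HEK293T and 31 in HuCCT1. 26 rose in both, beside 9.37% of all genes, and 11 of the list were alike in size. POLD1, the catalytic subunit of DNA polymerase delta, was at 119, 125 and 99.4 CPM in HEK293T labelled SNRPD2KO and at 40.3, 36.5 and 42.1 CPM in Ctrl, and at 54.1, 52.7 and 57.3 CPM against 20.2, 21.8 and 20.5 CPM in HuCCT1. Its difference was -0.13 (95% interval -0.40 to 0.14). MCM6 of the replicative helicase rose by 0.63 and by 0.55, RRM2, a subunit of ribonucleotide reductase, by 1.12 and by 1.00, and E2F1, the factor that drives this set, by 1.25 and by 1.04. CDT1, the licensing factor, was opposite (0.38 in HEK293T and -0.66 in HuCCT1), and RFC1, the clamp loader's large subunit, was opposite the other way (-0.38 and 0.80). An E2F site, TTTGGCGC on either strand, was found in 9 of 52 promoter entries of the list (17.3%), beside 0.652% of all promoters. The MCM6 promoter is shown as an example with 2 matches, in capitals, at chr2:135876444-135876693 (minus strand, GRCh38.p14).
MCM6: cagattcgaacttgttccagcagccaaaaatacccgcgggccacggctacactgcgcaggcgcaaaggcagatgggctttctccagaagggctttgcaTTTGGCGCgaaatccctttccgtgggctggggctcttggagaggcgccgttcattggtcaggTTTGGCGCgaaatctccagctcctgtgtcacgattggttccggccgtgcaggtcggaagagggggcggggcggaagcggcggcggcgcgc
MCM6 was one of the 11 genes of this list with a response alike in size. Its difference of -0.08 was the smallest of the 9 with a match, which ranged from -0.44 (CDC6) to 0.75 (POLA1). The match is therefore not tied to a response of like size.

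Of 54 tested replication-dependent histone genes, 38 rose in HEK293T and 13 in HuCCT1, and 31 had the lower response in HuCCT1. H2AC8 responded by 1.22 in HEK293T, and its HuCCT1 value of -0.07 did not pass. Many histone genes are near-identical copies between which reads can be split, so single members are uncertain. Of 43 mitotic genes, 23 had the higher response in HuCCT1 and 8 the lower, and 10 fell in HEK293T while rising in HuCCT1. Over all genes tested 19.8% were higher, 20.9% lower and 4.58% opposite in that direction. In the bin of longest transcripts above, 50.87% of genes had the higher response in HuCCT1 and 14.3% the lower. Transcript lengths of the mitotic genes were not compared with that bin.

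CENPE (ENSG00000138778.14, chromosome 4, 103105349 to 103198445), the kinetochore motor, was at 12.3, 13.5 and 20.7 CPM in HEK293T labelled SNRPD2KO and at 52.4, 51.4 and 62.5 CPM in Ctrl. In HuCCT1 it was at 46.8, 39.6 and 39.5 CPM against 7.12, 8.75 and 9.53 CPM. As an opposite gene it was picked for groups that did not overlap in either line and lay in reversed order (difference 4.14, SE 0.22, adjusted p = 4.4e-10). CENPF, SGO2 and PLK4 were opposite in the same way, with differences of 2.36, 3.17 and 1.93. TOP2A, topoisomerase II alpha, rose in both lines but more in HuCCT1 (1.46 and 0.34). AURKB, the kinase of the chromosomal passenger complex, was the opposite gene that rose in HEK293T (0.62) and fell in HuCCT1 (-0.24). SPC24 rose alike (1.56 and 1.43).

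Genes of ERK feedback and ETS factors fell in both lines for 14 of 22, with 9 of 22 higher and 3 lower in response in HuCCT1. Over all genes tested the shares were 8.75%, 19.8% and 20.9%. ETV4, ETV5, DUSP6 and SPRY4, which report on ERK activity, fell by 3.37, 3.20, 2.63 and 3.94 in HEK293T and by 0.95, 1.42, 0.97 and 0.94 in HuCCT1. SPRY4 had 4 counts and DUSP6 had 15 in the 3 HEK293T libraries labelled SNRPD2KO, so their HEK293T responses rest on few reads. ETS1 and ETS2 fell alike.

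Of 30 immediate early genes, 11 had the higher response in HuCCT1 and 4 the lower, with a median difference of 0.33. In both lines 10 fell and 5 rose. Of all genes tested 19.8% were higher and 20.9% lower in response in HuCCT1, while 8.75% fell and 9.37% rose in both lines. MYC was among the 4 lower and was opposite: 109, 109 and 102 CPM in HEK293T labelled SNRPD2KO against 27.4, 26.2 and 28.1 CPM in Ctrl, and 292, 244 and 264 CPM in HuCCT1 against 504, 513 and 518 CPM. The groups did not overlap, and the difference was -2.91 (SE 0.11, adjusted p = 6e-12). EGR1, a zinc finger factor, rose in HuCCT1 (2.03) and did not pass in HEK293T (-0.29, adjusted p = 0.054). JUN and JUND rose alike in both lines, while FOSL1, NR4A1 and MAFF fell in both.

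Targets of YAP and TEAD had the higher response in HuCCT1 in 12 of 26 and the lower in 4. Over all genes tested the shares were 19.8% and 20.9%. Among the 9023 genes of at least 5 CPM in both lines, 2390 were higher and 2932 lower. ANKRD1 fell in HEK293T (-2.14) and rose in HuCCT1 (0.75), MYOF likewise (-1.01 and 1.64), and NUAK2 and LATS2 fell in both. Hypoxia and glycolysis genes had the higher response in HuCCT1 in 15 of 37 and the lower in 8. SLC2A3, a glucose transporter, was at 137, 116 and 117 CPM in HuCCT1 labelled SNRPD2KO against 32.9, 39.7 and 34.1 CPM in Ctrl, and at 49.4, 49.7 and 45.4 CPM in HEK293T against 153, 133 and 63.0 CPM. ADM, a vasodilator peptide, and BNIP3L, a mitophagy receptor, were opposite in the same way, and VEGFA the reverse (0.76 in HEK293T and -0.46 in HuCCT1).

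Among 30 targets of p53, 13 had the higher response in HuCCT1 and 3 the lower, and 9 fell in both lines. Of all genes tested 19.8% were higher and 20.9% lower in response, and 8.75% fell in both lines. Of the 9023 genes with at least 5 CPM in both lines, 2390 were higher and 2932 lower. MDM2, the ligase that removes p53, fell in HEK293T (-1.28) and did not pass in HuCCT1 (-0.01). TIGAR, a regulator of glycolysis, fell by 1.41 in each line. HEK293T carries large T antigen, which binds p53, and its part in these differences was not tested. Of 34 targets of NF-kappaB and cytokines, 24 fell in HuCCT1 and 7 in HEK293T, 11 had the lower and 6 the higher response in HuCCT1, and 10 reached 5 CPM in both lines. CXCL8, a chemokine, fell in HuCCT1 from 68.0, 63.9 and 71.0 CPM in Ctrl to 8.89, 9.27 and 7.67 CPM, and rose in HEK293T from a mean of 1.03 CPM to 2.13 CPM. NFKBIA, the inhibitor of NF-kappaB, and RELB, one of its subunits, fell in HuCCT1 and did not pass in HEK293T, with called differences of -0.72 and -0.79. Of 31 interferon genes, 16 rose in HEK293T and 12 in HuCCT1, 11 had the lower response in HuCCT1 and 4 the higher. The share of lower calls in this and the NF-kappaB list is near that of the 9023 genes. Only 10 interferon genes reached 5 CPM in both lines. Their median difference was -0.28, beside -0.45 over the 31. IFI6 rose in HEK293T by 2.14 from a mean of 2.53 CPM, while STAT2 rose in both and more in HuCCT1 (1.77 and 0.74). As in some lists above, calls went both ways in the remaining ones: NRF2 targets (7 higher and 9 lower of 28), integrins, laminins and collagens (11 and 12 of 38), and antigen presentation (3 and 4 of 14).

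The genes with the largest fitted differences mostly had a group at or near 0. Of the 20 largest without overlap of libraries in at least 1 line, 10 per direction, 16 had at most 3 counts in all 3 libraries of some group. TM4SF1, a surface protein of epithelial cells, had 0 counts in HEK293T labelled SNRPD2KO and 51 in Ctrl, but 23553 and 57560 in HuCCT1, and GPR15 had 0 and 10 counts against 281 and 39. PYCARD, the inflammasome adaptor, had 0 and 19 counts in HEK293T and 709 and 551 in HuCCT1. No fold change is given for these, since 3 counts is the limit that a count of 0 allows. A second selection, of genes with at least 5 CPM in the higher group of each line, was added after the values were seen. Both selections left out genes whose groups overlapped in both lines. WDR73 (difference -3.56, adjusted p = 0.0025) and VAMP7 (3.52, adjusted p = 0.011) were left out for this, though larger than some genes named below.

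In that selection COL7A1, the anchoring fibril collagen, was at 2.93, 2.26 and 3.37 CPM in HEK293T labelled SNRPD2KO against 16.2, 17.8 and 25.9 CPM in Ctrl, and at 66.4, 65.5 and 79.5 CPM in HuCCT1 against 24.1, 23.7 and 23.8 CPM (difference 4.34, SE 0.25). KIF20B, a mitotic kinesin, gave responses of -1.59 and 2.37, TPR, a nucleoporin of the nuclear basket, -0.83 and 2.84, and UACA -0.52 and 3.14. REV3L, the catalytic subunit of DNA polymerase zeta, gave -1.51 and 1.85. Carboxypeptidase CPA4 had the largest difference, 7.10, on 4 counts in HEK293T labelled SNRPD2KO against 177 in Ctrl. ETV1 and EMP1 fell in HEK293T by 3.63 and 3.72 and did not pass in HuCCT1.

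On the other side, FUT1, a fucosyltransferase, was at 13.5, 15.1 and 15.7 CPM in HEK293T labelled SNRPD2KO against 1.75, 0.990 and 1.09 CPM in Ctrl, and at 10.4, 12.5 and 10.3 CPM in HuCCT1 against 20.4, 21.3 and 17.7 CPM (difference -4.35, SE 0.27). G0S2, an inhibitor of fat breakdown, gave 3.51 and -0.89, RGS16, which quenches G protein signals, 2.00 and -2.40, ASS1, the argininosuccinate synthase, 2.85 and -0.30, and AKNA 2.92 and -0.37. Libraries of the groups did not overlap in either line for these 5 genes, and the selection had asked for this in at least 1 line.

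Other genes of that selection rested on single libraries. EEF1B2, a translation elongation factor, was at 551 CPM in HuCCT1 Ctrl replicate 1 and at 3.49 and 3.07 CPM in replicates 2 and 3, against 1.71, 2.48 and 2.02 CPM in libraries labelled SNRPD2KO. Its difference of -5.45 (adjusted p = 0.036) was 0.36 without that library (adjusted p = 0.88), and it also missed the threshold without HEK293T SNRPD2KO replicate 1 (-3.54, adjusted p = 0.18), without HEK293T Ctrl replicate 2 or 3, and without any one of the HuCCT1 libraries labelled SNRPD2KO (adjusted p from 0.064 to 0.072). LLPH was at 341 CPM in HEK293T SNRPD2KO replicate 3 and at 6.39 and 5.07 CPM in the others, and its difference of -3.69 turned to 0.67 without that library (adjusted p = 0.02) and missed the threshold without HEK293T Ctrl replicate 1 or 2 (-3.60 and -3.66, adjusted p = 0.054 and 0.057). PSME1, a proteasome activator subunit, was at 92.5 CPM in HuCCT1 Ctrl replicate 1 and at 2.03 and 2.15 CPM in the others, and its difference of -4.84 was -0.90 without it (adjusted p = 0.055). SLC25A26 ranged from 0.461 to 10.3 CPM in HuCCT1 Ctrl. In all, 47 tested genes had a group in which the highest library exceeded 10 CPM and 10 times the lowest, and 12 of them were called as different.

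Among the opposite genes, the 10 per direction with the largest smaller response included 5 with at most 3 counts in some group. TXNIP, an inhibitor of thioredoxin and of glucose uptake, was at 66.6, 66.4 and 73.5 CPM in HEK293T labelled SNRPD2KO against 33.7, 30.6 and 22.5 CPM in Ctrl, and at 103, 113 and 109 CPM in HuCCT1 against 301, 296 and 303 CPM. UNC5B, a netrin receptor, gave 1.68 and -1.54, and the collagen receptor DDR2 gave 1.12 and -2.21 on 10 and 43 counts in HuCCT1. In the other direction the coiled-coil Golgi proteins GOLGA4 and GCC2 gave -1.73 and 1.67, and -1.59 and 1.73. GOLGA4 was at 20, 18.9 and 29.4 CPM in HEK293T labelled SNRPD2KO against 77.8, 64.5 and 85.5 CPM in Ctrl, and at 77.0, 65.2 and 75.7 CPM in HuCCT1 against 22.8, 22.8 and 22.7 CPM. UBA7, the activating enzyme for ISG15, and CLDN2, a tight junction protein, rose in HuCCT1 by 2.45 and by 1.99, and fell in HEK293T on 6 against 48 and 11 against 37 counts.

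Shared genes of like size included TRIM65, a ubiquitin ligase, at 69.5, 74.3 and 63.7 CPM in HEK293T labelled SNRPD2KO against 22.1, 19.7 and 20.3 CPM in Ctrl, and at 54.4, 54.5 and 56.5 CPM in HuCCT1 against 15.7, 18.9 and 14.5 CPM. Its responses were 1.74 and 1.75, with a difference of 0.01 (95% interval -0.28 to 0.30). HDAC6, the cytoplasmic deacetylase, rose by 1.56 and by 1.73, and its difference of 0.17 became 0.41 with the GC trend removed (adjusted p = 0.0083). RFNG, THOC6, HAUS5, FADS3, H6PD and HMG20B rose by 1.38 to 1.60 in both lines. THOC6, of the THO messenger RNA export complex, differed with the GC and length trends removed (0.54, adjusted p = 0.016).

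Shared falls of like size included CREBZF, a bZIP factor, at 21.3, 19.5 and 23.9 CPM in HEK293T labelled SNRPD2KO against 58.4, 65.8 and 73.1 CPM in Ctrl, and at 41.6, 42.7 and 37.6 CPM in HuCCT1 against 131, 136 and 147 CPM. It fell by 1.60 and by 1.76, with a difference of -0.16 (95% interval -0.44 to 0.12). TNFRSF10D, a decoy receptor for TRAIL, fell by 1.31 and by 1.21. TRMU, which modifies mitochondrial tRNA, fell by 1.25 and by 1.06, and its difference of 0.18 was 0.44 with the GC trend removed (adjusted p = 0.015). PLEKHA3 fell by 1.25 and by 1.10, but its difference of 0.16 turned to -0.42 with the GC trend removed (adjusted p = 0.046). PARD6B and FAM174C likewise differed once trends were removed (-0.37, adjusted p = 0.031 for GC, and 0.48, adjusted p = 0.021 for GC and length). Of the 10 genes named for a shared direction and an unequal size, 5 had at most 3 counts in some group. The others included INSIG1, SCD and ACSS2, given above, and FGFR4, a receptor for FGF19, which rose by 1.32 in HEK293T and from 5 to 70 counts in HuCCT1.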

How the data were processed

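Total RNA, depleted of ribosomal RNA, was sequenced with a strand-specific Illumina kit on a HiSeq2000, per the labels. The authors deposited 1 table per line of raw read counts, with genes in rows and no scaling. The submitters' processing notes name cutadapt 4.2, HISAT2 2.2.1, RSEM and hg38, and the annotation release is not given in the sources used here. The floor of 3 counts covers counting error only.

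The 12 libraries labelled SNRPD2KO or Ctrl, grouped by label, were fitted together on the shared genes in edgeR 4.0.16 (R 4.3.3) with TMM factors, the default filter (minimum count 10, minimum total 15), 4 group means and two-sided quasi-likelihood F tests. Contrasts were the response in each line and their difference, each adjusted by Benjamini and Hochberg over 17617 genes at 0.05. The biological coefficient of variation was 10.5%. Standard errors and 95% intervals came from the weights and quasi-dispersions of the fit. The script was tested on simulated data.

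Named genes had a proper symbol and at least 5 CPM in the highest group. They included the 10 largest called differences per direction among genes whose groups of libraries did not overlap in at least 1 line. Without overlap in either line, 10 opposite genes, 10 shared genes of like size and 5 of unequal size were taken per direction. Up to 4 per list by adjusted p, SNRPD2 and PUS7 were added. Some genes of the rule are not reported here, and other list members were named after their values were seen. The members and lists were chosen with earlier results of these data known, and lists are described by counts and medians without a test. Promoters came from RefSeq (GRCh38.p14), lengths and GC from the longest GENCODE 29 transcript of each gene, for 99.9% of 8634 protein-coding genes. Alternatives were other scalings (RLE, upper quartile, TMM within a line), filters, DESeq2 1.42.0, limma voom 3.58.1, thresholds, thinning, trends removed, a replicate block and each library left out. Those with length trends and the minimum of 5 CPM in both lines were chosen after seeing the data.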

Additional observations from a re-analysis of the deposited data

Results flagged for a closer look

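A test of the difference between the lines (edgeR, adjusted p below 0.05) drew attention to 7171 genes in all, of which 1614 were called in both lines in opposite directions. Of the named genes with more than 3 counts in every group, the following stood out by size or by opposite direction, given as the HuCCT1 response minus the HEK293T response in log2. The response was higher in HuCCT1 for CPA4 (7.10), COL7A1 (4.34), CENPE (4.14), KIF20B (3.96), ETV1 (3.90), TPR (3.67), UACA (3.67), EMP1 (3.54), GOLGA4 (3.40), REV3L (3.36), UBA7 (5.52), CLDN2 (3.84) and GCC2 (3.32). It was lower in HuCCT1 for EEF1B2 (-5.45), SLC25A26 (-5.09), PSME1 (-4.84), RGS16 (-4.40), G0S2 (-4.40), FUT1 (-4.35), CHAC1 (-4.18), LLPH (-3.69), AKNA (-3.28), ASS1 (-3.15), UNC5B (-3.22), XBP1 (-2.78), TXNIP (-2.72), KANK3 (-3.04), SLC16A9 (-2.43) and DDR2 (-3.33). EEF1B2, PSME1 and LLPH owe these values to 1 library each, as given above, and SLC25A26 varied within HuCCT1 Ctrl. KANK3 and SLC16A9 rest on few HuCCT1 reads, with 14 and 11 counts under the SNRPD2KO label against 45 and 25 in Ctrl. With counts thinned to the smallest total, KANK3 did not pass (-1.55, adjusted p = 0.095). Groups of 3 libraries were not tested for single outlying ones. The same test called the other genes named above as differing, whose values stand there.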

How the results depend on the processing

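Across other scalings, filters, tools, thinning and trends, the number of genes that differed stayed within 1.5 times the 7171 reported, from 5163 at an adjusted p under 0.01 to 7463 without a filter on low counts. DESeq2 called 7026 and limma voom 7120. A test against a minimum change of 1.5-fold left 2964 (1611 with the higher and 1353 with the lower response in HuCCT1), 529 shared genes (262 higher, 267 lower) and 131 opposite ones, and an adjusted p under 0.01 left 972 opposite genes. Leaving out each library in turn gave 6596 to 7221 differing genes (3072 to 3530 higher, 3403 to 3691 lower in response in HuCCT1), 2898 to 3052 shared (1507 to 1796 higher, 1181 to 1439 lower), 1357 to 1695 opposite, and an SNRPD2 difference of 0.14 to 0.30.

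The SNRPD2 difference passed with trends removed: 0.48 for GC, 0.44 for length, 0.58 for both, and 0.48 and 0.58 for GC and for both with the replicate block. PLEKHA3 reversed, to -0.42 with GC, -0.80 with both trends and -0.81 with both and the block. Leaving out each library, LLPH ranged from -4.27 to 0.67 (without HEK293T SNRPD2KO replicate 3) and EEF1B2 from -6.03 to 0.36 (without HuCCT1 Ctrl replicate 1). Apart from the libraries left out, the cause was not tested. Of the 7171 genes, 5460 were among the 6639 called with both trends removed. Of 177 named genes, 154 kept direction and call under every alternative that gave them a value.

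Replicate numbers did not pair the libraries: deviations of same-numbered libraries correlated at -0.03 to 0.03, and the fit with a replicate block called 6933 genes. The median difference changed sign under some alternatives for SR factors, nonsense-mediated decay, NRF2 targets and integrins, laminins and collagens. HEK293T depth limits genes that are near 0 there, where a floor of 3 counts is 0.253 to 0.33 CPM.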
